A study of Rattus norvegicus with 18 samples.

Results

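The genes described here are those of the transforming growth factor beta (TGF-beta) pathway at its core, taken as a named list of 9 genes by role. They were the ligands Tgfb1, Tgfb2 and Tgfb3, the latency protein Ltbp1, the receptors Tgfbr1 and Tgfbr2, the signal carrier Smad3, the inhibitory Smad7 and the co-repressor Skil. A gene was taken where a probe set, the group of short probes that an Affymetrix array sums into 1 value, carried its symbol and no other. Of the 9 genes, 8 had such a probe set, with 13 probe sets in all, among 14217 genes on the array. Tgfbr2 was not analysed here. All 8 genes passed the filter on low values, log2 4 or more on at least 3 arrays, as did 9015 genes in the whole series, and each lay above log2 4 on all 18 arrays.

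Expression was measured in NRK-52E, an established rat kidney line with features of proximal tubule epithelium, labelled as strain Osborne-Mendel and grown in medium with fetal calf serum. Confluent cultures were given aristolochic acid (AA) at 1.65 µM in 0.1% DMSO, a concentration set by 10 percent inhibition at 72 h, and the controls got 0.1% DMSO alone. RNA was taken after 6, 24 or 72 h from 3 biological replicates of each treatment, so that each of the 3 times has a group AA and a group DMSO of 3 arrays. All groups were this 1 line, without the fibroblasts, vessels and immune cells of a kidney, and in bulk RNA fewer expressing cells and less RNA per cell cannot be told apart.

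TGF-beta ligands are secreted in a latent form, held inactive by their own propeptide and tied to the extracellular matrix by latent TGF-beta binding proteins such as Ltbp1. Once released, a ligand joins the type II and type I receptors, the type I receptor phosphorylates Smad2 and Smad3, and these enter the nucleus with Smad4 and change transcription. Smad7 and Skil are among the genes so induced and act as brakes, Smad7 at the receptor and Skil on the Smad complex. Aristolochic acid is a plant toxin that forms DNA adducts, injures the proximal tubule and causes interstitial fibrosis of the kidney, and TGF-beta1 is the best studied profibrotic ligand in that organ.

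The line was checked against marker genes. Of 10 proximal tubule markers on the array, 2 had a mean of log2 4 or more, the water channel gene Aqp1 and the transferase gene Ggt1, while the defining markers Lrp2, Cubn, Slc34a1 and Slc5a2 lay near the floor of the values. Of 9 general epithelial markers, 3 were above that level (Krt8, Tjp1 and Ocln), and Cdh1 and Epcam were near the floor. Of 12 fibroblast and mesenchymal markers, 7 were above it, among them Vim, Col1a1, Col1a2, Col3a1 and Acta2, while Pdgfra, Dcn, Lum and Thy1 were at the floor. The level summed over the mesenchymal list, on the log2 scale, was 15.70 in DMSO 72 h and 15.52 in AA 72 h, and over all groups it ran from 15.52 to 16.10. The epithelial sum ran from 14.39 to 14.84 over the groups. Of 4 immune markers 1 had a mean of log2 4 or more, and of 3 endothelial markers on the array 1 did. Group sums ran from 11.21 to 12.01 for the immune list and from 4.79 to 6.38 for the endothelial list. The sum over the proximal tubule list was 8.64 in DMSO 72 h and 6.90 in AA 72 h. It was 6.66 in DMSO 6 h, 7.54 in AA 6 h, 6.03 in DMSO 24 h and 6.21 in AA 24 h. DMSO 72 h was thus the highest group, and AA 72 h lay within the range of the earlier groups. The part of these changes in the results below was not tested. Array medians lay between log2 4.007 and 4.185, and 1 array, AA 6 h replicate 3, stood apart on the fourth principal component, at -26.5 against -6.63 and -8.92 for the other AA 6 h arrays. The gene and list calls at 6 h are therefore also given without it.

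Of the 8 genes, 4 differed between AA and DMSO at 6 h, 0 at 24 h and 7 at 72 h. Below, a gene rose or fell where its AA level lay above or below the DMSO level of that hour at an adjusted p under 0.05 in limma, a moderated linear model fitted to all genes. At 6 h the 3 ligand genes rose and the receptor gene Tgfbr1 fell, 4 of 8 genes against a background of 24.5% of the 9015 genes tested. At 24 h, 0 of 8 passed, against 2.09% of all genes, 0 had an unadjusted p under 0.05, and 0 passed in each of 17 alternative settings. At 72 h, 7 of 8 passed, 5 higher and 2 lower, against 47.2% of all genes, so a call was common for any gene at that time. With the mean of a gene's probe sets, 3 passed at 72 h. At 6 h, 2 passed with only the arrays compared, and 2 without AA 6 h replicate 3. The median log2 difference of the 8 genes was 0.11, 0.10 and 0.31 at 6, 24 and 72 h, and that of all tested genes was 0.01, -0.01 and 0.05. All AA arrays lay above all DMSO arrays for 5, 1 and 5 of the 8 genes at these times, and below them for 1, 0 and 2. Over all tested genes, 36.4%, 19.5% and 59.6% did not overlap in either direction, so a lack of overlap at 72 h was common for any gene.

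**Figure D1:**
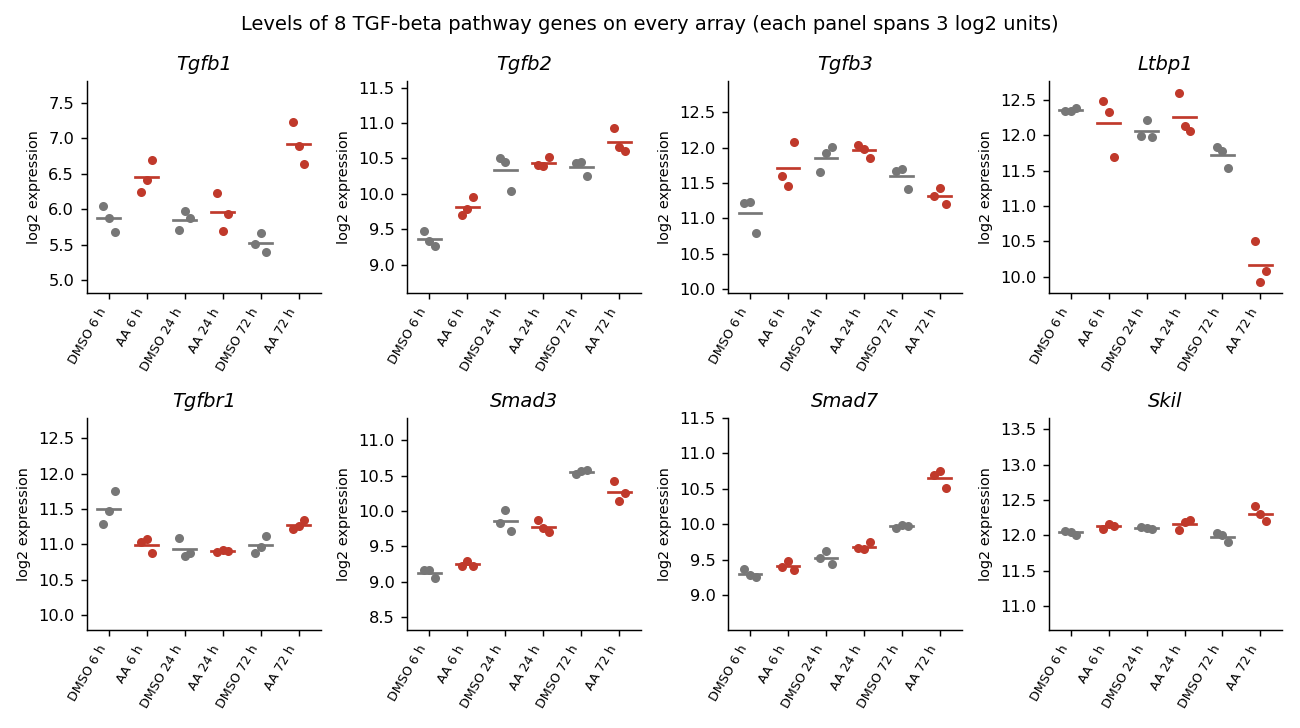
Log2 expression of the 8 genes on each of the 18 arrays, with 3 points and a bar at the mean for each group, DMSO in grey and AA in red; every panel spans 3 log2 units but starts at its own level. The AA 72 h points of Tgfb1 and Smad7 lie above all other groups' means, and those of Ltbp1 lie at 9.93 to 10.51, below every other array.

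The promoters of 3 genes are shown because these genes differed clearly at 72 h, Tgfb1 and Skil upward and Ltbp1 downward, and because 2 of them hold the letters searched for. Each line is the 250 bases before the start site that the RefSeq promoter table (GRCr8) gives for the gene, read 5′ to 3′ on the gene's strand. That site is not always the outer end of the gene's annotated span, and 45 bases of the Ltbp1 window and 91 of the Skil window, those nearest the site, lie inside the span. The Tgfb1 window lies at chr1:90324062-90324311 on the plus strand, that of Ltbp1 at chr6:26177302-26177551 on the minus strand and that of Skil at chr2:114203573-114203822 on the minus strand. Capitals mark matches to CAGAC, the core that Smad proteins bind, on either strand, and to TGACGTCA, the cyclic AMP response element (CRE) bound by CREB and ATF factors, a palindrome.
Tgfb1: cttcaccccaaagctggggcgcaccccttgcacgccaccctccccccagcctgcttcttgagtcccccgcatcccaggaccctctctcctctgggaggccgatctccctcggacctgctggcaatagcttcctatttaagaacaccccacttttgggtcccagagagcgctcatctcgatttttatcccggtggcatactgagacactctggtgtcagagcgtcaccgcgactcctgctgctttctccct
Ltbp1: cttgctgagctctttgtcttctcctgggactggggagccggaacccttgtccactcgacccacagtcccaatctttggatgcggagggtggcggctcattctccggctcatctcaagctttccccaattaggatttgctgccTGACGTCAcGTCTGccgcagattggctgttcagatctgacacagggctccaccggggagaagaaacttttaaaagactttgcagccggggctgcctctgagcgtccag
Skil: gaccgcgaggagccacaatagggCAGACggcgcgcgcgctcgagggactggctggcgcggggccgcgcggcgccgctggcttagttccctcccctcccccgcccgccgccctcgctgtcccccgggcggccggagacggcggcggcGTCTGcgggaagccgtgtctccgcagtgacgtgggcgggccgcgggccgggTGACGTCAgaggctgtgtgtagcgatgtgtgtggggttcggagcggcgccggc
The Ltbp1 window held 1 CRE, 108 bases upstream of the start, and 1 CAGAC core at 99. The Skil window held 1 CRE at 53 bases, inside the annotated span, and CAGAC cores at 227 and 104. The other 7 listed genes, Tgfbr2 included, matched neither, and none of the 9 held the full Smad palindrome GTCTAGAC or the AP-1 site TGACTCA. The windows of Tgfb2, Tgfb3 and Tgfbr2 lay inside the annotated span over all 250 bases, and that of Tgfbr1 over 50. For these genes the sequence before the outer end of the span was thus not searched, or only in part. Over 33469 RefSeq promoters of the same length, 42.9% held CAGAC, 1.59% TGACGTCA, 4.05% TGACTCA and 0.173% GTCTAGAC. These are matches of letters in a short window, and binding was not measured.

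Tgfb1, the gene of the ligand most tied to kidney fibrosis, was higher in AA at 6 h and at 72 h. It lies at chr1:90324312-90340627 in GRCr8, the build of all positions given, and had 1 probe set, 1370082_at, with a mean of log2 6.10 over the arrays. At 6 h its log2 level was 6.05, 5.88 and 5.68 on the DMSO arrays and 6.25, 6.41 and 6.70 on the AA arrays. At 24 h it was 5.71, 5.98 and 5.87 in DMSO and 6.24, 5.69 and 5.94 in AA. At 72 h it was 5.50, 5.67 and 5.39 in DMSO and 7.23, 6.89 and 6.64 in AA. The groups did not overlap at 6 h or 72 h and did at 24 h, and AA 72 h held the highest group mean of the 6, although its lowest array lay under the highest of AA 6 h. The log2 difference was 0.58 ± 0.18 (SE) at 6 h (limma, adjusted p = 0.023, n = 3) and 1.40 ± 0.18 at 72 h, a 2.65-fold higher level (limma, adjusted p = 2.57e-06, n = 3). At 24 h it was 0.10, with a 95% interval of -0.27 to 0.47 (adjusted p = 0.899). Without AA 6 h replicate 3 the 6 h difference was 0.46 (adjusted p = 0.133), and that call was also lost without DMSO 6 h replicate 2 or 3 and when only the 6 h arrays were fitted.

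Tgfb2, the gene of a ligand with wide roles in development, was higher in AA at 6 h and, with the brighter of its 2 probe sets, at 72 h. It lies at chr13:100691540-100793227 and had 2 probe sets. With 1387172_a_at, the brighter, its log2 level was 9.48, 9.34 and 9.26 in DMSO 6 h and 9.71, 9.79 and 9.95 in AA 6 h. At 72 h it was 10.44, 10.46 and 10.25 in DMSO and 10.93, 10.67 and 10.60 in AA. The AA arrays lay above the DMSO arrays at both times, and both 6 h groups lay below all later arrays. The log2 difference was 0.46 ± 0.12 at 6 h (limma, adjusted p = 0.00888, n = 3) and 0.35 ± 0.12 at 72 h (adjusted p = 0.0174, n = 3). At 24 h it was 0.11 (adjusted p = 0.82).

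The second Tgfb2 probe set, 1388011_a_at, gave the same result at 6 h and another at 72 h. At 72 h its log2 level was 9.23, 9.12 and 9.26 in DMSO and 9.22, 8.81 and 9.16 in AA, and the groups overlapped. Fitted among all 16253 probe sets that passed the filter, its difference was 0.51 at 6 h (limma, adjusted p = 0.0149) and -0.14 at 72 h (adjusted p = 0.423). The higher Tgfb2 level at 72 h therefore rests on 1 of 2 probe sets, and with their mean it was 0.10 (adjusted p = 0.445). That call was also lost without AA 72 h replicate 1 or DMSO 72 h replicate 3. The 6 h call was lost without AA 6 h replicate 3, at 0.39 (adjusted p = 0.0549).

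Tgfb3, the gene of the third ligand, was higher in AA at 6 h, and at 72 h it lay on the lower side without passing. It lies at chr6:111435170-111457646 and had 1 probe set, 1367859_at. Its log2 level was 11.21, 11.24 and 10.80 in DMSO 6 h and 11.60, 11.46 and 12.09 in AA 6 h. At 72 h it was 11.67, 11.70 and 11.41 in DMSO and 11.32, 11.43 and 11.21 in AA. All AA arrays were above DMSO at 6 h, while the groups overlapped at 72 h with AA on the lower side. The log2 difference was 0.63 ± 0.14 at 6 h (limma, adjusted p = 0.00412, n = 3), 0.10 at 24 h (adjusted p = 0.87) and -0.27 ± 0.14 at 72 h (adjusted p = 0.114). The 6 h call held without AA 6 h replicate 3, at 0.45 (adjusted p = 0.0326), and was lost when only the 6 h arrays were fitted, at 0.36 (adjusted p = 0.0571). At 72 h Tgfb3 passed as lower with array weights and when only the 72 h arrays were fitted.

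Ltbp1, whose product anchors latent TGF-beta in the matrix, had the widest range of the 8 genes, with 2.18 log2 units between its highest and lowest group means. It lies at chr6:25781625-26177346 and had 1 probe set, 1367912_at. At 72 h its log2 level was 11.83, 11.78 and 11.54 in DMSO and 10.51, 9.93 and 10.07 in AA, so that every AA array was more than 1 log2 unit below every DMSO array. The log2 difference was -1.55 ± 0.17, a level 0.343 times that of DMSO (limma, adjusted p = 4.99e-07, n = 3). At 6 h it was 12.34, 12.35 and 12.38 in DMSO and 12.48, 12.33 and 11.69 in AA, and the low value came from AA 6 h replicate 3. The 6 h difference was -0.19 (adjusted p = 0.451) and 0.05 without that array. At 24 h the difference was 0.20, with a 95% interval of -0.16 to 0.56 (adjusted p = 0.76).

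**Figure D2:**
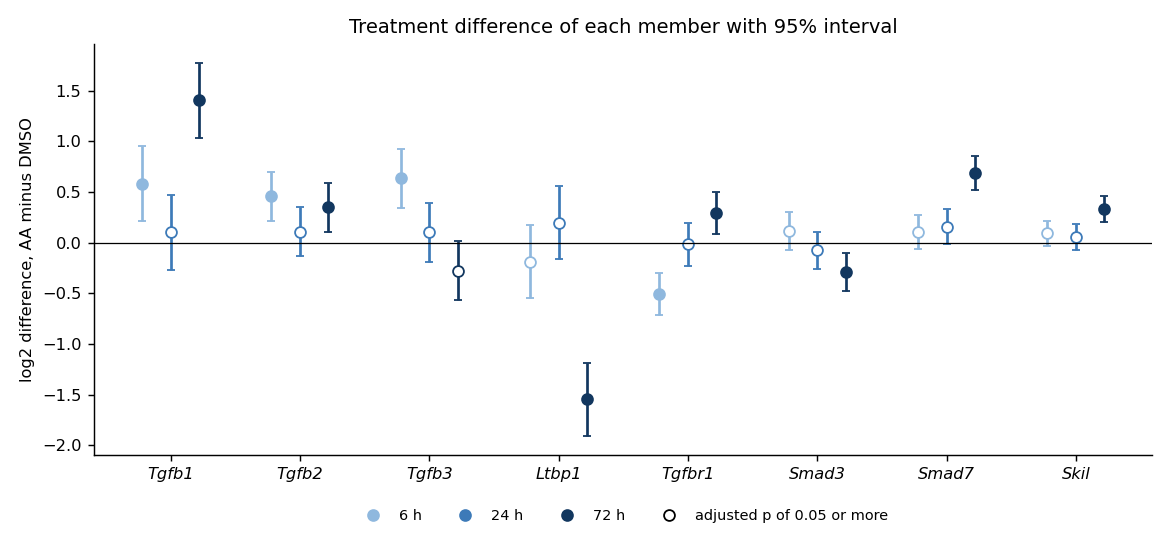
Log2 difference of AA minus DMSO for each gene at 6, 24 and 72 h, as points with 95% intervals from limma, filled where the adjusted p was under 0.05. Every interval at 24 h holds 0, and at 72 h Tgfb1 at 1.40 and Ltbp1 at -1.55 lie farthest from 0 on opposite sides.

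Tgfbr1, the gene of the type I receptor kinase, fell at 6 h and rose slightly at 72 h. It lies at chr5:66449348-66506371 and was read with 1376636_at. Its log2 level was 11.29, 11.47 and 11.75 in DMSO 6 h and 11.03, 11.07 and 10.88 in AA 6 h. At 72 h it was 10.87, 10.96 and 11.12 in DMSO and 11.22, 11.26 and 11.34 in AA. The groups did not overlap at either time, AA being the lower group at 6 h and the higher at 72 h. The log2 difference was -0.51 ± 0.10 at 6 h (limma, adjusted p = 0.002, n = 3), -0.02 at 24 h (adjusted p = 0.982) and 0.29 ± 0.10 at 72 h (adjusted p = 0.0227, n = 3). The 6 h call held in all 17 alternative settings, at -0.45 without AA 6 h replicate 3 (adjusted p = 0.015). The 72 h call was lost without AA 72 h replicate 3 or without DMSO 72 h replicate 1 or 2, and with the mean of its probe sets. A second probe set, 1369504_at, had a mean of log2 2.38, near the floor, and was not tested.

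Smad3, the transcription factor that carries the signal of most profibrotic TGF-beta responses, was lower in AA at 72 h. It lies at chr8:73022204-73132324 and was read with 1389127_at, its other probe set 1369528_at being at the floor with a mean of log2 1.92. At 72 h its log2 level was 10.52, 10.57 and 10.58 in DMSO and 10.42, 10.14 and 10.25 in AA, without overlap. The difference was -0.29 ± 0.09 (limma, adjusted p = 0.0122, n = 3), and it lost its call without AA 72 h replicate 2 and with the mean of both probe sets, at -0.15. At 6 h the AA arrays, at 9.22, 9.30 and 9.22, lay just above the DMSO arrays, at 9.16, 9.17 and 9.06, and the difference of 0.12 did not pass (adjusted p = 0.352). At 24 h it was -0.08 (adjusted p = 0.835).

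Smad7, an inhibitor of the receptors that TGF-beta itself induces, rose at 72 h. It lies at chr18:71263508-71291849 and had 3 probe sets, of which 1368896_at was the brightest. With it the log2 level was 9.94, 9.99 and 9.97 in DMSO 72 h and 10.70, 10.75 and 10.51 in AA 72 h. The AA 72 h arrays were higher than all other arrays of the series. The difference was 0.69 ± 0.08, a 1.61-fold higher level (limma, adjusted p = 9.49e-07, n = 3). It was 0.10 at 6 h (adjusted p = 0.365) and 0.16 at 24 h (adjusted p = 0.482), where the AA arrays at 9.66, 9.64 and 9.74 lay above the DMSO arrays at 9.52, 9.61 and 9.44.

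The other Smad7 probe sets were dimmer and did not pass at any time. At 72 h 1368897_at had log2 levels of 6.07, 6.37 and 6.48 in DMSO and 6.56, 4.56 and 6.45 in AA, with 1 AA array far below the rest, and a difference of -0.45 (limma over all probe sets, adjusted p = 0.363). At 72 h 1368898_at was at 5.91, 5.86 and 5.96 in DMSO and at 6.27, 5.98 and 6.18 in AA, all AA arrays being higher, with a difference of 0.24 (adjusted p = 0.123). The Smad7 call thus rests on 1 of 3 probe sets, and with the mean of the 3 it was 0.16 (adjusted p = 0.418).

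**Figure D3:**
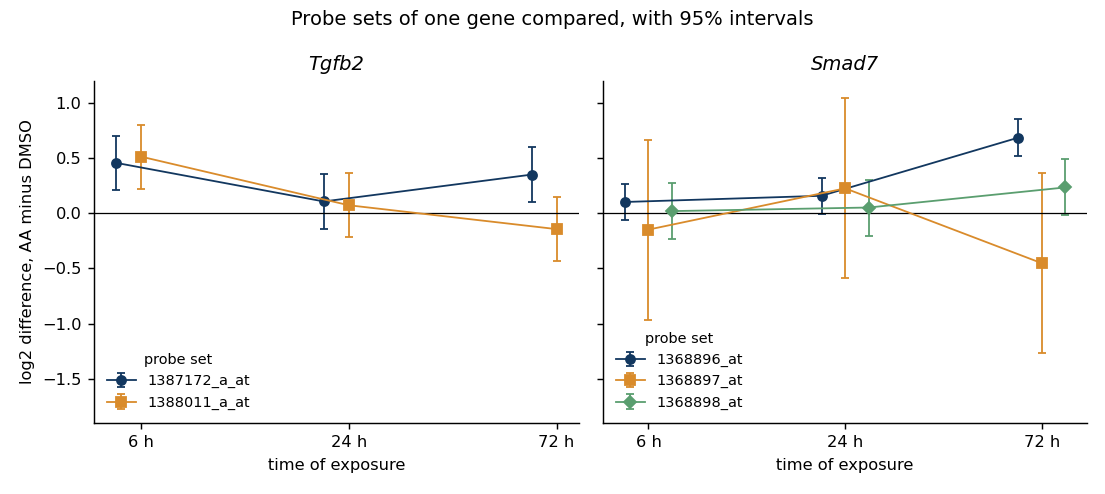
Log2 difference of AA minus DMSO by time for the 2 probe sets of Tgfb2 and the 3 of Smad7, with 95% intervals from a limma fit over all probe sets. The Tgfb2 probe sets lie together at 6 h, at 0.46 and 0.51, and apart at 72 h, at 0.35 and -0.14, and 1 Smad7 probe set has an interval away from 0 at 72 h.

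Skil, whose product SnoN holds Smad complexes in check, rose at 72 h by a small step. It lies at chr2:114175534-114203663, and its 1 probe set, 1372347_at, gave log2 levels of 12.03, 12.00 and 11.91 in DMSO 72 h and 12.42, 12.30 and 12.21 in AA 72 h. The groups did not overlap, and the difference was 0.33 ± 0.06 (limma, adjusted p = 0.000208, n = 3), a 1.25-fold higher level. At 6 h the difference was 0.09 (adjusted p = 0.29) and at 24 h it was 0.06 (adjusted p = 0.806). Without AA 6 h replicate 3 the 6 h differences of Smad3, Smad7 and Skil were 0.13, 0.13 and 0.09, and none passed. The whole range of its group means was 0.33 log2 units, the narrowest of the 8 genes.

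Whether the AA effect itself differed between times was tested as a difference of differences, in which the comparisons with 72 h share the 72 h arrays. From 6 h to 24 h, 0 of 8 genes passed, against 2.43% of all genes, and 3 (Tgfb2, Tgfb3 and Tgfbr1) had an unadjusted p under 0.05. From 24 h to 72 h, 4 of 8 passed, against 32.4% of all genes. The effect on Tgfb1 moved up by 1.30 (limma, adjusted p = 0.000585), on Smad7 by 0.53 (adjusted p = 0.00152) and on Skil by 0.27 (adjusted p = 0.0232), and that on Ltbp1 moved by -1.74 (adjusted p = 2.09e-05). From 6 h to 72 h, a comparison added after the others had been seen, 7 of 8 passed, against 41.2% of all genes. There the effect on Tgfb1 was larger at 72 h by 0.82 (adjusted p = 0.0133), that on Tgfb3 was smaller by a difference of -0.91 (adjusted p = 0.00128), and that on Tgfb2 differed by -0.11, with a 95% interval of -0.45 to 0.24. The second Tgfb2 probe set, 1388011_a_at, differed by -0.66, with an interval of -1.07 to -0.25, and passed in the fit of all probe sets (adjusted p = 0.013), so the result for Tgfb2 depends on the probe set. The effect on Tgfbr1 went from negative to positive, by 0.80 (adjusted p = 0.000201). The Skil call from 24 h to 72 h was lost in 3 alternative settings and that from 6 h to 72 h in 10, and the Smad7 calls were lost with the mean of its probe sets.

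The same genes also moved with time in DMSO alone, in comparisons that share the DMSO arrays with those above. Between 6 h and 24 h, 5 of 8 differed, against 58.7% of all genes. Tgfb2 was higher at 24 h by 0.97 ± 0.12 (limma, adjusted p = 7.43e-07), Tgfb3 by 0.78 (adjusted p = 9.25e-05), Smad3 by 0.72 (adjusted p = 1.15e-06) and Smad7 by 0.22 (adjusted p = 0.0228, lost in 6 settings), and Tgfbr1 was lower, at -0.57 (adjusted p = 6.4e-05). Between 24 h and 72 h, 2 of 8 differed, against 34.3% of all genes, Smad3 by 0.71 (adjusted p = 6.86e-06) and Smad7 by 0.44 (adjusted p = 0.000272), which was 0.16 with the mean of its probe sets (adjusted p = 0.461). For Tgfb2, Tgfb3, Tgfbr1 and Smad3 the step from 6 h to 24 h in DMSO was larger in size than the AA difference at each time, which was not tested. The AA 6 h means of Tgfb2, Tgfb3 and Tgfbr1 stood between those of DMSO 6 h and DMSO 24 h. So did those of Ltbp1, Smad3 and Smad7, which did not pass at 6 h, while those of Tgfb1 and Skil did not. The share of all genes placed so was not counted, and both differences use the same DMSO 6 h arrays. This placing therefore cannot be read as a trait of these genes. Tgfbr1 had means of 11.50 in DMSO 6 h, 11.00 in AA 6 h and 10.93 in DMSO 24 h. Tgfb1 and Ltbp1 did not pass either DMSO comparison, and their log2 differences between 24 h and 72 h were -0.33 and -0.35 (adjusted p = 0.161 and 0.131).

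In the order of the 6 group means, the arrays of neighbouring groups often overlapped in range. This was not tested or counted over all genes, so it describes each gene and sets none apart. For Tgfb3 all 5 pairs of neighbouring groups overlapped, for Tgfbr1 and Skil 4 of 5, and for Tgfb1 and Ltbp1 3 of 5. For Smad3 1 of 5 overlapped, its means climbing from 9.13 in DMSO 6 h to 10.56 in DMSO 72 h with the AA 72 h mean of 10.27 just below. For Tgfb2 and Smad7, read with their brightest probe sets, 2 of 5 overlapped, and in both the highest group was AA 72 h and the lowest DMSO 6 h. With Tgfb2 1388011_a_at the highest group was AA 24 h, at 9.57, and AA 72 h was at 9.06. With Smad7 1368897_at AA 72 h was the lowest group, at 5.85, and with 1368898_at it was the highest, at 6.145.

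Genes whose level ran most like a member's over the 18 arrays were found with Pearson's r, 2 for each, as a description, since the arrays share their time points and treatments. Ltbp1 ran most like Mgp, the gene of matrix Gla protein, an inhibitor of calcification (r = 0.99), and Kif26b (r = 0.97). Smad3 was nearest to the myelin protein gene Pmp22 (r = 0.99) and Scp2 (r = 0.98), Smad7 to Ikbip (r = 0.98) and Bicra (r = 0.97), and Tgfb2 to Basp1 (r = 0.98) and Pdlim4 (r = 0.97). Tgfb1 was nearest to Hspg2, the gene of the basement membrane proteoglycan perlecan (r = 0.92), and the receptor kinase gene Epha2 (r = 0.91). The closest to Tgfbr1 were Birc2 (r = 0.94) and Onecut2 (r = 0.92), to Tgfb3 Kptn and Pmvk (r = 0.93 each), and to Skil the AP-1 gene Jund (r = 0.91) and Inf2 (r = 0.89).

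The rest of the pathway was read in 7 lists of other genes, 149 of them on the array and 114 tested. At 6 h 17 of the 114 rose and 18 fell, at 24 h 2 rose and 0 fell, and at 72 h 35 rose and 27 fell, beside 24.5%, 2.09% and 47.2% of all genes passing in either direction at these times, with median log2 differences of -0.06, 0.01 and 0.00. Without AA 6 h replicate 3, 6 rose and 4 fell at 6 h, all 10 of them among the 35 called with it. Over all genes, 900 of 9008 tested passed at 6 h without that array, against 2211 of 9015 with it. The loss of calls was thus not particular to these lists. Dact2, Tgif2, Cdkn1a and Vim, of the genes named at 6 h below, kept their calls in all 17 alternative settings. With arrays centred on their medians, 21 rose and 6 fell at 6 h. That scaling also moved the split over all genes at 6 h, from 1091 higher and 1120 lower to 1654 and 643, while the 8 genes above kept 3 higher and 1 lower.

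**Figure D4:**
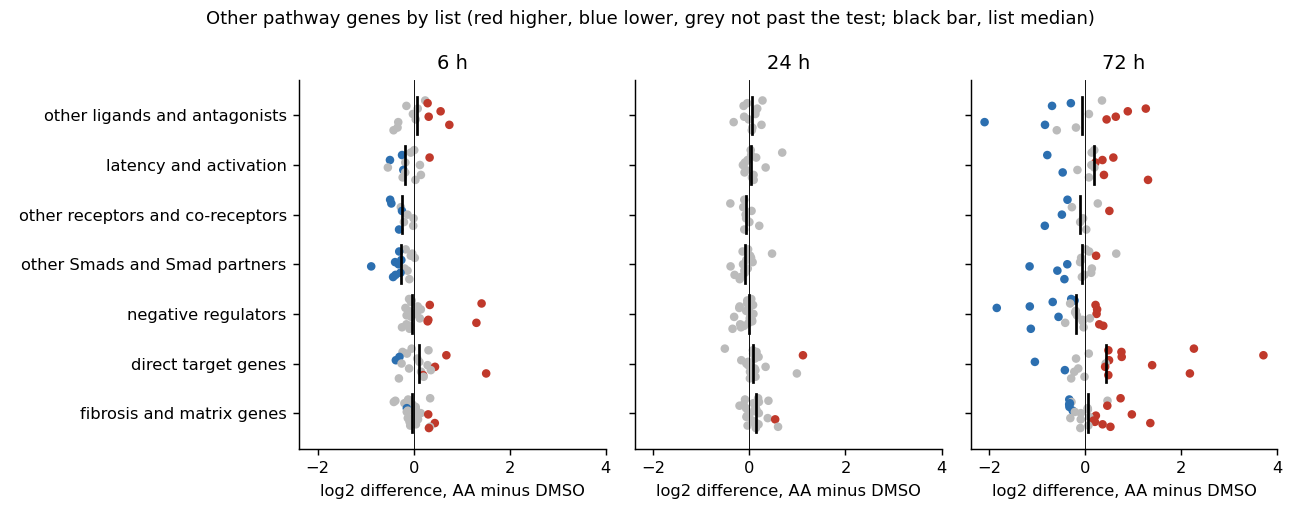
Log2 difference of AA minus DMSO at 6, 24 and 72 h for the 114 other pathway genes in 7 lists, 1 point a gene, red where higher and blue where lower at an adjusted p under 0.05, with a black bar at the list median. Few points are coloured at 24 h, and at 72 h the direct target list has its median farthest to the right, at 0.43.

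Among other ligands and their antagonists, 4 of 12 rose and 0 fell at 6 h (1 and 0 without AA 6 h replicate 3), and 4 rose and 4 fell at 72 h. At 6 h the activin subunit gene Inhbb (0.74, adjusted p = 0.0226) and its antagonist gene Fst, follistatin (0.56, adjusted p = 0.00465), rose together with Gdf11 (0.31) and Bmp4 (0.29), of which Fst alone kept its call without that array. At 72 h Fst rose again, from 12.01 in DMSO to 12.90 (0.89, adjusted p = 1.06e-05), and the bone morphogenetic protein (BMP) antagonist gene Chrd rose (1.27, adjusted p = 1.27e-05). Inhbb was by then lower (-0.83, adjusted p = 0.00507), and Inhba, the other activin subunit gene, fell from 5.36 to 3.27, near the floor (-2.09, adjusted p = 2.61e-06).

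Of 13 genes of latency and activation, 1 rose and 3 fell at 6 h, and 5 rose and 2 fell at 72 h (3 and 3 with quantile normalization). The 6 h changes were in Itgav, a subunit of the integrins that release latent TGF-beta (-0.49, adjusted p = 0.0118), Fbln5 (-0.24), Ltbp3, a relative of Ltbp1 (-0.21), and Furin, the protease that cuts the propeptide (0.33, adjusted p = 0.0391). With centred arrays these counts were 2 rising and 1 falling, and without AA 6 h replicate 3 they were 0 and 0. Of 17 alternative settings, the 6 h call of Itgav was lost in 4, that of Fbln5 in 10, that of Ltbp3 in 9 and that of Furin in 8. At 72 h Furin rose by 0.59 (adjusted p = 0.000279) and Tsku, which encodes a secreted proteoglycan, by 1.31 (adjusted p = 4.81e-07). Ltbp4, another latent TGF-beta binding protein gene, fell beside Ltbp1, at -0.46 (adjusted p = 0.00298), and the elastic fibre gene Fbln5 at -0.78 (adjusted p = 3.16e-07).

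Of 9 other receptors and co-receptors, 0 rose and 4 fell at 6 h beside Tgfbr1, and 1 rose and 3 fell at 72 h. The 6 h changes were in the BMP and activin receptor genes Acvr1 (-0.49, adjusted p = 0.0178) and Acvr2a (-0.46, adjusted p = 0.0454), the co-receptor gene Rgmb (-0.30) and the decoy receptor gene Bambi (-0.24, adjusted p = 0.047). Of 17 alternative settings, the Acvr1 call was lost in 5, that of Acvr2a in 13, that of Rgmb in 8 and that of Bambi in 11. With centred arrays 1 fell, and without AA 6 h replicate 3, 0 did. At 72 h Bambi rose by 0.51 (adjusted p = 8.08e-05), while the BMP co-receptor gene Rgma (-0.84, adjusted p = 0.000181), Bmpr1a (-0.48, adjusted p = 0.0016) and Acvr1 (-0.36, adjusted p = 0.0408, lost in 7 settings) were lower. The co-receptor gene Tgfbr3 had a mean of log2 2.55, near the floor, and was not tested.

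Of 15 other Smads and Smad partners, 8 fell and 0 rose at 6 h, and 4 fell and 1 rose at 72 h. With centred arrays 4 fell at 6 h, and without AA 6 h replicate 3, 3 did. Of the genes named next for 6 h, Smad4 and Wwtr1 kept their calls without that array, and Smad9, Smad5 and Zfyve16 lost theirs. The shared partner gene Smad4 (-0.26, adjusted p = 0.0154), Smad9 and Smad5 of the BMP branch (-0.88 and -0.39, adjusted p = 0.012 and 0.00922), the endosomal anchor gene Zfyve16 (-0.43) and Wwtr1, which encodes TAZ (-0.38), were among those lower at 6 h. At 72 h Smad9 was again lower (-1.15, adjusted p = 0.000506), with Tcf12 (-0.58), the Smad anchor gene Zfyve9 (-0.43) and the inhibitory Smad6 (-0.37, adjusted p = 0.00632), which fell while Smad7 rose. Smad2, the close relative of Smad3, did not pass at any time, with differences of 0.02, 0.04 and -0.08.

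Of 21 negative regulators, 5 rose and 0 fell at 6 h (2 and 0 without AA 6 h replicate 3), and 5 rose and 7 fell at 72 h. At 6 h Dact2, whose product promotes loss of TGF-beta receptors in zebrafish, rose by 1.41 (adjusted p = 0.000265) and the co-repressor gene Tgif2 by 1.31 (adjusted p = 0.000182). Fkbp1a, whose product binds the type I receptor (0.34), and the ubiquitin ligase gene Stub1 (0.31, lost in 9 settings) also rose. Both of these calls were lost without AA 6 h replicate 3. At 72 h 2 ubiquitin ligase genes of the Nedd4 family were lower, Nedd4l (-1.84, adjusted p = 3.18e-09) and Wwp2 (-1.13, adjusted p = 0.000402), as were Ldlrad4 (-1.15) and the phosphatase gene Ctdsp2 (-0.67, adjusted p = 2.77e-06). Smurf1, the ligase that Smad7 brings to the receptor, rose by 0.24 (adjusted p = 0.0453, lost in 10 settings) and the TGF-beta induced gene Pmepa1 by 0.25 (adjusted p = 0.0101). Smurf1 and Pmepa1 were chosen after their values were seen.

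Of 19 direct target genes, 4 rose and 2 fell at 6 h (2 and 1 without AA 6 h replicate 3), 1 rose at 24 h, and 10 rose and 2 fell at 72 h (9 and 3 with quantile normalization), when their median difference was 0.43 against 0.05 over all genes. Cdkn1a, the cell cycle inhibitor gene p21, which is also a main p53 target, rose at every time, by 0.68, 1.12 and 3.71, to a log2 level of 14.56 in AA 72 h (adjusted p = 1.56e-16). At 6 h Tnfaip6, a hyaluronan-binding protein gene (1.51), and the AP-1 gene Junb (0.44) rose and Id2 fell (-0.37, lost in 9 settings). These 6 h calls of Tnfaip6, Junb and Id2 were each lost without AA 6 h replicate 3. At 72 h Angptl4 (2.27, adjusted p = 1.35e-08), Tnfaip6, from near the floor (2.18), and the fibronectin receptor gene Itga5 (1.40, adjusted p = 2.9e-06) rose. Ccn2, the connective tissue growth factor gene and a standard readout of TGF-beta in kidney cells, did not pass at any time, with differences of -0.14, 0.08 and 0.08 at a log2 level above 15 in every group. At 6 h it gained a call as lower in 2 of 17 settings, without AA 6 h replicate 2 and without DMSO 6 h replicate 3. At most 0.242% of probe sets were brighter on any array, and whether the probe set was saturated was not tested. Of genes chosen after their values were seen, the matricellular gene Ccn1 (0.76, adjusted p = 3.73e-05) and Id2 (0.50, adjusted p = 0.00201) rose at 72 h. Id3 fell (-1.04, adjusted p = 1.13e-08), so that Id2 and Id3 moved in opposite directions at that time. The target gene Thbs1 had no probe set with that single symbol in the annotation used and was not analysed here.

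Of 25 fibrosis and matrix genes, 3 rose and 1 fell at 6 h (1 and 0 without AA 6 h replicate 3), 1 rose at 24 h, and 9 rose and 5 fell at 72 h, with a median of 0.06 at 72 h. The contractile genes Tagln, transgelin, and Acta2, the smooth muscle actin that marks myofibroblasts, rose at 72 h by 1.36 (adjusted p = 3.16e-08) and 0.74 (adjusted p = 0.0024). P4ha1, a collagen prolyl hydroxylase gene, rose by 0.97 (adjusted p = 2.79e-09), and the protease inhibitor gene Timp3 by 0.53 (adjusted p = 0.0498, lost in 9 settings). Of the matrix genes named in any case, neither passed: the fibronectin gene Fn1 differed by 0.05, 0.15 and 0.06, and Col1a1, of collagen I, by -0.38, 0.40 and 0.47, of which 0.47 at 72 h had an adjusted p of 0.0813 although all AA arrays were above DMSO. Col1a1 gained a call at 72 h in 3 of 17 settings, among them the mean of its probe sets, at 0.78 (adjusted p = 0.00484). At 6 h Tagln (0.44), Vim (0.32, adjusted p = 0.00581) and P4ha1 (0.30) rose and Col5a2 fell (-0.14, lost in 11 settings). Of these, Vim alone kept its call without AA 6 h replicate 3. At 24 h the fibroblast protein gene S100a4 rose (0.54, adjusted p = 0.0172, lost in 6 settings).

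**Figure D5:**
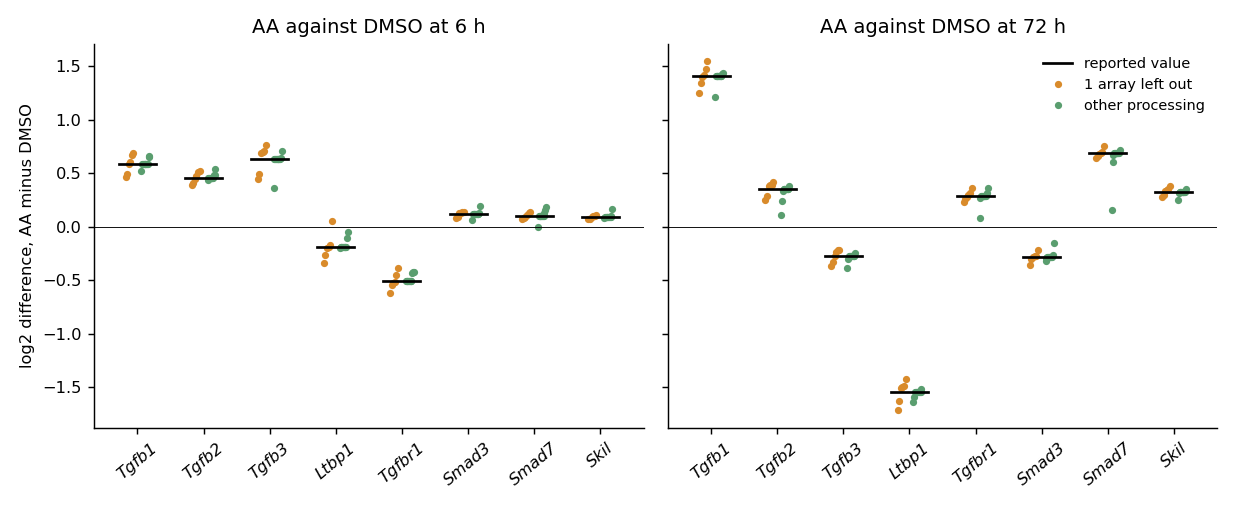
Log2 difference of AA minus DMSO for the 8 genes at 6 h and 72 h, with a black bar at the reported value, orange points with 1 array left out and green points under other processing. At 72 h the points of Tgfb1 lie between 1.21 and 1.54 and those of Ltbp1 between -1.72 and -1.42, while single points of Tgfb2, Tgfbr1 and Smad7 fall to between 0.08 and 0.16.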

How the data were processed

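The measurements were Affymetrix rat arrays of 18 samples of NRK-52E cells, 3 in each of 6 groups. The deposited values are log2 expression, 1 per probe set and array, made with GCRMA per the submitters' processing notes. Neither its version nor its settings were given in the sources used here. GCRMA gives weak probe sets a floor near log2 2, so differences against levels under log2 4 depend on its background model. Depth does not apply to arrays, and their number limits precision (median SD between replicates 0.117, replicate correlations 0.9962 to 0.999).

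Of 31099 probe sets, 57 were controls, 20826 had 1 symbol, 436 several and 9780 none, and 20758 of those with 1 symbol matched RefSeq (GRCr8) by gene number. A gene was read from its brightest single-symbol probe set. The 9015 genes that reached log2 4 on 3 arrays or more were fitted in R 4.3.3 with limma 3.58.1, as 6 group means with moderation and intensity trend (12 residual and 7.271 prior degrees of freedom), and p-values were adjusted by Benjamini-Hochberg over all genes of a comparison. Passing means an adjusted p under 0.05. ± after a difference is its standard error.

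Listed genes, other lists, motifs and comparisons were chosen with earlier results of these data known. Named by rule were all probe sets of the listed genes, up to 4 called genes of each other list and time by size of difference, Ccn2, Fn1, Col1a1, Thbs1, Inhba, Smad2, Smad4 and Tgfbr3, and the 2 genes most like each listed gene. 1 gene that the rule names is not reported here. The labels call the samples biological replicates and name no shared plate or day, so each p-value reflects only how these samples vary, which may be technical. The steps were tested on simulated data. Alternatives covered scaling, filters, trend, array weights, the choice of probe set, a replicate block and leaving out each array.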

Additional observations from a re-analysis of the deposited data

Results flagged for a closer look

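For 7 of the 8 genes the AA effect differed between times by limma's test of the difference itself, where 41.2% of all tested genes passed for 72 h minus 6 h and 32.4% for 72 h minus 24 h. The effect at 72 h minus that at 24 h was 1.30 for Tgfb1, -1.74 for Ltbp1, 0.53 for Smad7 and 0.27 for Skil. The effect at 72 h minus that at 6 h was 0.82 for Tgfb1, -0.91 for Tgfb3, -1.36 for Ltbp1, 0.80 for Tgfbr1, -0.40 for Smad3, 0.58 for Smad7 and 0.24 for Skil. The differences of Tgfb3, Tgfbr1 and Smad3 were of opposite sign at 6 h and 72 h, and of these Tgfbr1 passed at both times, Tgfb3 at 6 h and Smad3 at 72 h. Both comparisons use the AA 72 h and DMSO 72 h arrays, so their values are not independent. Skil lost the call of the comparison with 6 h in 10 of 23 alternative settings and Smad7 and Smad3 lost theirs with the mean of the gene's probe sets.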

How the results depend on the processing

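Over 64 pairs of gene and comparison, no call turned its direction. Of 559 alternative values of called differences, 520 kept the call and 39 lost it, and of 673 of uncalled ones 15 gained a call. The number of pathway genes passing was 2 at 6 h with only the arrays compared, and 3 at 72 h with the mean of a gene's probe sets. Array weights gave 2 for the effect at 24 h minus 6 h and 5 for DMSO at 72 h against 24 h, where the mean of probe sets gave 1. Leaving out 1 array gave 2 to 4 at 6 h and 0 to 1 for the effect at 24 h minus 6 h. Without AA 6 h replicate 3, the genes passing at 6 h were 900 of all tested. Over all genes, leaving out 1 array gave 900 to 2536 at 6 h, 100 to 202 at 24 h and 22 to 458 for the effect at 24 h minus 6 h. With only the arrays compared these were 579 at 6 h and 89 for the effect at 24 h minus 6 h. Without the filter they were 112 at 24 h and 78 for that effect, and without the intensity trend 138. Array weights gave 388 at 24 h, 1172 for that effect and 4707 for DMSO at 72 h against 24 h. With every probe set tested by itself, where more features are tested, the counts were 3482 at 6 h, 7236 at 72 h, 4804 for the effect at 72 h minus 24 h, 6389 for 72 h minus 6 h, 8715 for DMSO at 24 h against 6 h and 5720 for DMSO at 72 h against 24 h. Centring moved the split of the effect at 24 h minus 6 h from 131 higher and 88 lower to 74 and 108. The cause of these shifts was not tested.

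With the replicate number as a replicate block, 4, 0 and 7 pathway genes passed at 6, 24 and 72 h, as without it, and 2265, 188 and 4256 of all genes. Of the other pathway genes named, the replicate block gave Col1a1 a call at 72 h (adjusted p = 0.0279) and took that of Smurf1 (adjusted p = 0.0545). Deviations of same-numbered AA and DMSO arrays of the same hour had correlations from -0.156 to 0.155, and those of unlike-numbered arrays from -0.181 to 0.285. With 3 arrays a group this cannot decide whether the numbers pair the samples, and pairing across times was not examined. Signal near the floor limits what can be said of Tgfbr3, Inhba in AA 72 h and the second probe sets of Tgfbr1 and Smad3.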
